A study of Homo sapiens with 2 samples.

Results

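In CWR22rv1 cells, 30 genes held at least 50 reads in the control library and at most 3 reads in the library of Akt1/2 DKO cells. These genes, called silenced here for their reads alone, were picked from 19607 measured genes by those 2 limits on rounded reads. The limits were met by 35 genes, and SNAI2, CD36, MEP1A, TSPAN2 and UGT2B10 were left out by name. CWR22rv1 is an established human prostate cancer cell line. RNA was sequenced as 1 library of cells labelled Akt1/2 knockout, in which the kinase genes AKT1 and AKT2 were cut with CRISPR/Cas9, and 1 library of cells labelled wild type, the control. The study grew knockout cells from single cells after puromycin selection, but the labels do not say which clone gave the library, nor whether the control cells were cloned. With 1 library per genotype no difference has a replicate check, no p-value is given, and a clone, a library or a culture cannot be told apart from the genotype.

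The silenced genes do not form a single pathway, and many belong to well-known cell surface and metabolic systems. G protein-coupled receptors sit in the plasma membrane, bind hormones or lipids outside the cell and pass the signal to G proteins inside. Aldo-keto reductases of the AKR1C group reduce steroids such as dihydrotestosterone, and glutathione S-transferases couple glutathione to reactive compounds. GATA3, a transcription factor in the set, is known from T cells, mammary luminal cells and the urinary tract. Akt itself is the kinase downstream of PI3K that holds FOXO transcription factors out of the nucleus.

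The targeted genes were checked first. AKT1 was counted at 2645 reads in control and 591 in Akt1/2 DKO, and AKT2 at 2362 and 667. Both were lower and both remained detectable, and reads summed over a gene do not show the cut itself. The estimated reads summed to 9970820 in control and 10718650 in Akt1/2 DKO, and the library size ratio after TMM normalization was 1.11. In the deposited table an estimate need not be whole, because a read can be shared among genes, so the estimates were rounded. A count of 3 reads, used as the floor below, corresponds to 0.301 CPM in control and 0.280 CPM in Akt1/2 DKO, so a gene at 0 was not detectable at this depth, which does not make it absent. In bulk RNA, fewer cells that express a gene and less RNA per cell cannot be told apart.

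The 30 genes together held 7446 reads in control and 39 in Akt1/2 DKO. Their control reads ran from 51 to 1042 with a median of 145.5. In the Akt1/2 DKO library 9 genes were at 0 reads, 9 at 1, 6 at 2 and 6 at 3. Among the 10663 genes with at least 50 control reads, 0.328% met the limits before the exceptions. Their median log2 fold change against the floor, with a library under 3 reads set to 3, was -5.73, beside 0.01 over the 13318 genes tested, whose reads in both libraries summed to 10 or more. Because the reads chose the genes, these values describe the choice. For scale, 0.961% of those 13318 genes were lower by at least 10-fold in Akt1/2 DKO, 15.0% were lower by at least 1.5-fold and 15.9% were higher by at least 1.5-fold.

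**Figure D1:**
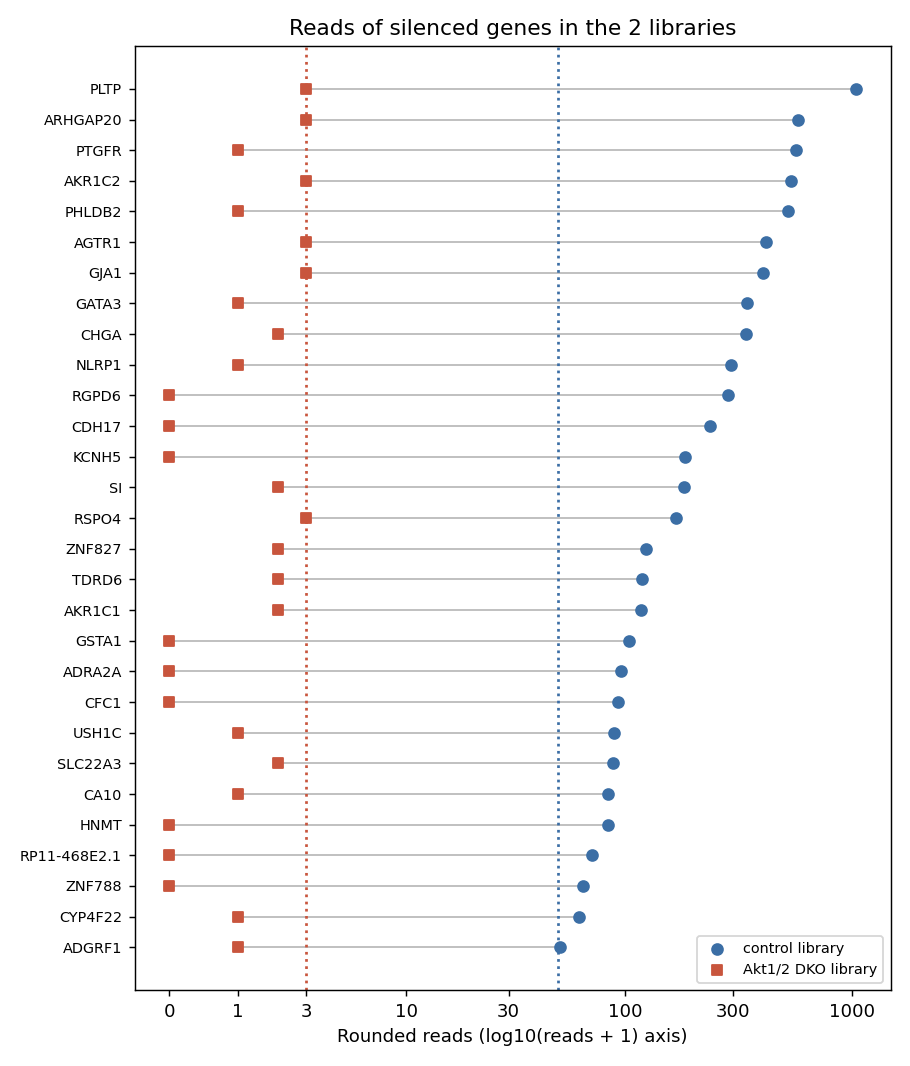
Rounded reads of 29 of the 30 silenced genes on a log10(reads + 1) axis, with a circle for the control library, a square for the Akt1/2 DKO library and dotted lines at 50 and 3 reads. PLTP is highest in control at 1042 reads and ADGRF1 lowest at 51. AL136295.1 stands under the clone-based name of the deposited table, the row above ZNF788, here and in the plot of neighbours.

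**Figure D2:**
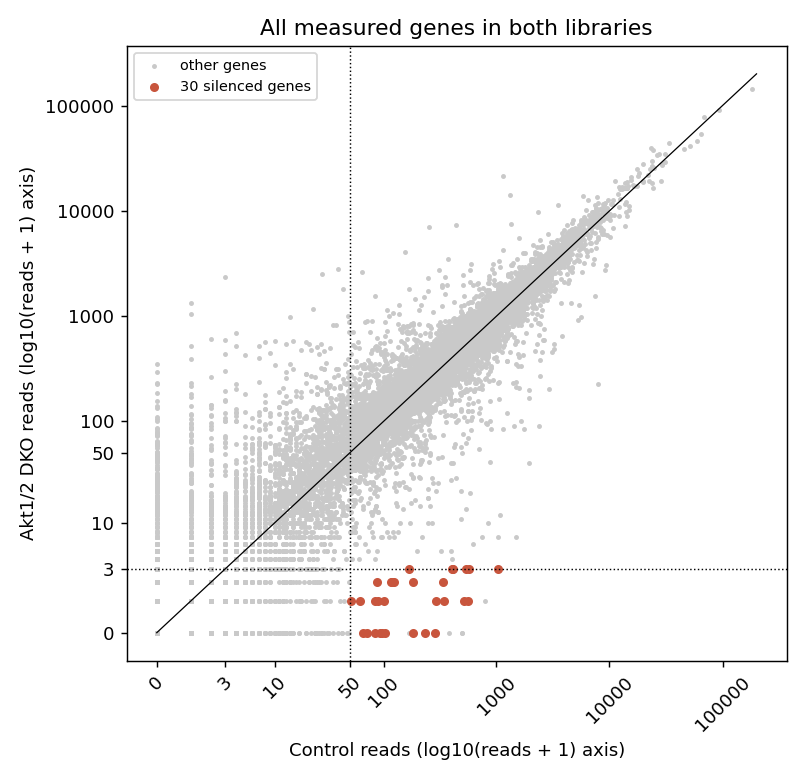
Each point is 1 gene, with control reads across and Akt1/2 DKO reads up, both on log10(reads + 1) axes, and the solid line marks equal reads. The 30 silenced genes lie in the corner of at most 3 and at least 50 reads, apart from the 5 genes left out by name, which are drawn as other genes.

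Compared per length, in FPKM, the silenced genes were mostly of modest level in control. Their median level was 6.65 FPKM, beside 15.9 FPKM for all genes with at least 50 control reads, and 4 of the 30 lay above that value. These were PLTP (59.94 FPKM), AKR1C2 (49.62), AGTR1 (18.1) and CHGA (16.41). The lowest was TDRD6 at 1.59 FPKM. In Akt1/2 DKO the highest level among the 30 was 0.26 FPKM, for AKR1C2.

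The limits cut through a continuous range. Just inside the control limit lay ADGRF1 with 51 and 1 reads (control first), CYP4F22 with 62 and 1, ZNF788 with 65 and 0, AL136295.1 with 71 and 0, and CA10 with 84 and 1. Just outside it lay GPX3 with 49 and 2, HIST2H2AA3 with 49 and 0, EGR3 with 44 and 1, and DPEP3 with 42 and 0. Genes with 3 reads in Akt1/2 DKO were inside the other limit, among them PLTP, ARHGAP20, AKR1C2, AGTR1 and GJA1. Just outside were LHFPL4, with 404 control reads and 4 in Akt1/2 DKO, DNAH2 with 400 and 5, GLRX with 84 and 4, LRRK2 with 60 and 4, and MOB3B with 52 and 4.

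The silenced set held 5 receptors, which together went from 1230 reads in control to 6 in Akt1/2 DKO. PTGFR, the receptor of prostaglandin F2 alpha (chromosome 1 from 78303884 to 78539749, GRCh38), had 565 reads in control and 1 in Akt1/2 DKO. That is a 626-fold difference, with a 95% exact interval for counting error from 112 to 24785. AGTR1, the type 1 receptor of angiotensin II (chromosome 3 from 148697784 to 148743008), had 418 and 3 reads, 154-fold lower (52.5 to 752). Its sister gene AGTR2 had 0 reads in both libraries, so no other angiotensin II receptor of this group was detected in either. ADRA2A, an adrenoceptor that inhibits adenylyl cyclase, had 96 and 0 reads, which is 35.5-fold lower against the floor of 3 reads. The related ADRA2B (10 and 9 reads) and ADRA1A (13 and 7) were near the detection limit in both libraries. ADGRF1, an adhesion receptor, had 51 and 1 reads.

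A further 5 genes encode junction, scaffold, channel or transport proteins, and together went from 1002 to 6 reads. GJA1, which encodes the gap junction protein connexin 43 (chromosome 6 from 121435577 to 121449727), had 406 reads in control and 3 in Akt1/2 DKO, 150.0-fold lower (51.0 to 731). A pseudogene, GJA1P1, shares 5.72% of its 50-base words. CDH17, liver-intestine cadherin (chromosome 8 from 94127171 to 94217303), had 236 and 0 reads, a difference of 87.2-fold against the floor. Of 10 other measured cadherin genes, 4 were lower and 3 higher by at least 1.5-fold. For scale, 15.0% of all 13318 genes tested were lower and 15.9% higher by that much. CDH1, E-cadherin, had 5349 and 3343 reads, CDH7 went from 485 to 11, and CDH12 went from 3 to 100. USH1C, which encodes harmonin, a scaffold of stereocilia and of brush border protocadherin links, had 89 and 1 reads. KCNH5, a voltage-gated potassium channel, had 183 and 0 reads, 67.6-fold lower against the floor. Of 5 measured KCNH genes, 1 was lower and 3 higher by at least 1.5-fold, with KCNH6 at 332 and 45 reads and KCNH2, the hERG channel, at 446 and 526. SLC22A3, an organic cation transporter for monoamines, had 88 and 2 reads, 48.8-fold lower (13.1 to 409).

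Enzymes and enzyme-like proteins were the largest group, with 7 genes that went from 1173 reads in control to 9 in Akt1/2 DKO. AKR1C2, a 3-alpha-hydroxysteroid dehydrogenase that reduces dihydrotestosterone (chromosome 10 from 4987400 to 5018031), had 540 and 3 reads, 199.6-fold lower (67.9 to 971). AKR1C1, which reduces progesterone at its 20 position, had 117 and 2 reads, 64.9-fold lower (17.6 to 542). The next gene of the cluster, AKR1C3, had 295 and 21 reads, and AKR1C4 had 2 and 0. The 4 AKR1C genes together had 954 reads in control and 26 in Akt1/2 DKO, 40.7-fold lower (27.6 to 62.6). That sum matters because the transcripts overlap in sequence. Of the distinct 50-base words of AKR1C2, 38.9% occur in transcripts of another gene, nearly all in AKR1C1, and reads in such words can be assigned to either gene. The split between AKR1C1 and AKR1C2 is therefore uncertain, while the low sum in Akt1/2 DKO does not depend on it.

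The 250 bases before the RefSeq starts of AKR1C1 and AKR1C2 are shown because they are nearly the same. They come from RefSeq (GRCh38.p14), are written 5′ to 3′ on the strand of the gene, and capitals mark the base that differs when they are aligned with a shift of 4 bases. Of 246 aligned bases, 245 are the same (99.6%). AKR1C1 is on the plus strand at chr10:4963165-4963414 and AKR1C2 on the minus strand at chr10:5003858-5004107. The AKR1C2 window lies inside the gene span given above, so it does not stand before the outermost start. Which starts these cells used was not tested, nor was any part of these letters in the reads.
AKR1C1: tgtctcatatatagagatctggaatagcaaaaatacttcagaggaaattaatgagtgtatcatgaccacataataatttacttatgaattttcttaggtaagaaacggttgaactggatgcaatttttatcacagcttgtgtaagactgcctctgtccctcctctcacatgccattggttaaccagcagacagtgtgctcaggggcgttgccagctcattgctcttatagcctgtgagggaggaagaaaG
AKR1C2: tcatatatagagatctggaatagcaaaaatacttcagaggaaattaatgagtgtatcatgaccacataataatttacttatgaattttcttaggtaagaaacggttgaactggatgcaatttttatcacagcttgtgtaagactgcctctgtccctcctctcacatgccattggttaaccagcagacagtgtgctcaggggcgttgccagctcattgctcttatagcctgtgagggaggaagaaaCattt
Both windows are poor in CpG, with 2 CpG each, beside a median of 11 over all 35116 promoters of the table.

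GSTA1, an alpha-class glutathione S-transferase, had 104 reads in control and 0 in Akt1/2 DKO, 38.4-fold lower against the floor. Its near copy GSTA2 had 29 and 1 reads, and 21.7% of the words of GSTA1 occur in GSTA2. The other genes of the cluster differed from these. GSTA3 had 13 reads in control and 86 in Akt1/2 DKO, 5.97-fold higher (3.31 to 11.7), and GSTA4 had 532 and 393. Summed over the cluster the reads were 678 and 480. CYP4F22, a fatty acid omega-hydroxylase of skin barrier ceramides, had 62 and 1 reads. HNMT, which methylates and so inactivates histamine, had 84 and 0. SI, the sucrase-isomaltase of the intestinal brush border, had 182 and 2, 100.9-fold lower (27.5 to 839). CA10, a carbonic anhydrase relative without enzyme activity, had 84 and 1.

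**Figure D3:**
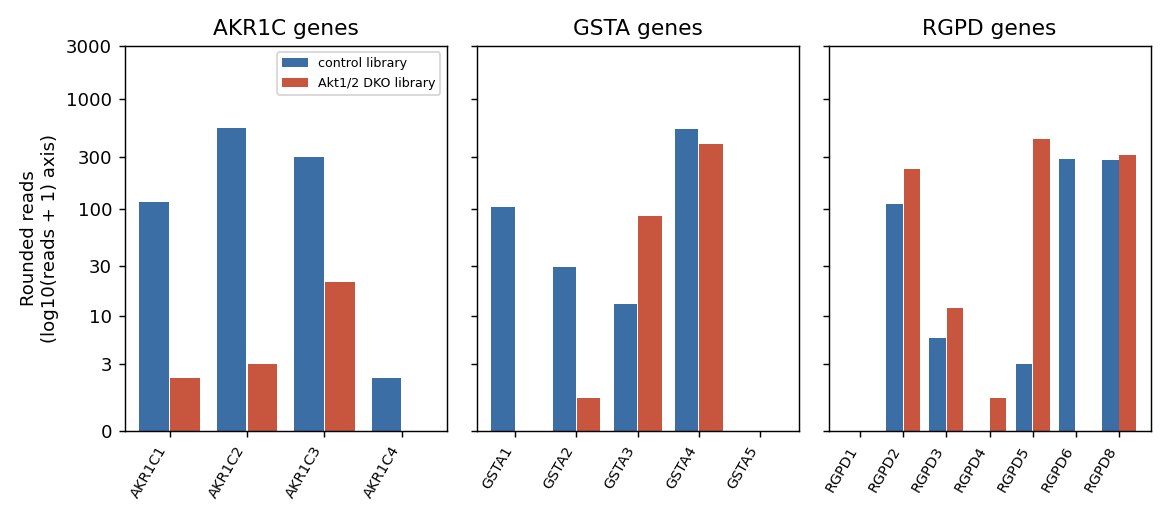
Rounded reads per gene on a log10(reads + 1) axis for the AKR1C, GSTA and RGPD genes, with a bar for each library. AKR1C1, AKR1C2 and AKR1C3 are lower in Akt1/2 DKO, while GSTA3 (13 to 86 reads) and RGPD5 (3 to 435) are higher beside their silenced neighbours GSTA1 and RGPD6. Reads of RGPD5 and RGPD6 can be assigned to either gene, and their sum (287 and 435) was not lower.

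Secreted proteins, with 1 protein held at the cell surface, gave 4 members, from 1643 reads in control to 8 in Akt1/2 DKO. PLTP, which moves phospholipids between lipoproteins (chromosome 20 from 45898621 to 45912155), had the most control reads of the set, 1042 against 3, 385-fold lower (131 to 1870.3). CTSA, which overlaps PLTP by 200 bases on the opposite strand, had 979 and 800 reads. CHGA, which encodes chromogranin A of neuroendocrine secretory granules (chromosome 14 from 92923080 to 92935293), had 340 and 2 reads, 188-fold lower (51.8 to 1563). Its granule partner CHGB had 326 and 244, so the 2 chromogranins had nearly equal reads in control and very unequal ones in Akt1/2 DKO. RSPO4, an R-spondin that enhances Wnt signaling, had 168 and 3 reads, and RSPO1, RSPO2 and RSPO3 had 0 in both libraries. CFC1, a co-receptor of Nodal attached to the cell surface, had 93 and 0. Of its words, 86.9% occur in its copy CFC1B, which had 0 reads in both libraries, so the sum of the pair was also 93 and 0.

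The transcription factor GATA3, the zinc finger genes ZNF827 and ZNF788, and a germ granule protein made up 4 members, with 653 reads in control and 5 in Akt1/2 DKO. GATA3 (chromosome 10 from 8045378 to 8075203) had 346 reads in control and 1 in Akt1/2 DKO, 384-fold lower (68.4 to 15195). The other measured GATA factors differed by less than 1.5-fold. GATA2 had 2031 and 1924 reads, and GATA6 had 67 and 70. ZNF827, a zinc finger protein linked to telomere chromatin, had 123 and 2 reads. ZNF788 had 65 and 0, and in GENCODE release 29 it is listed as a transcribed pseudogene that overlaps ZNF20, which had 75 and 48 reads. TDRD6, a tudor domain protein of the germ cell chromatoid body, had 119 and 2. For ZNF827 and for ZNF788 alike, 466 other ZNF genes were measured, and each count includes the other silenced gene. Of the 466, 85 were lower and 29 higher by at least 1.5-fold, beside 15.0% and 15.9% of all 13318 genes tested.

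A last group of 4 cytoplasmic proteins went from 1674 to 5 reads. RGPD6, with 284 and 0 reads that may belong to another gene, is counted in this sum and described below. ARHGAP20, a GTPase activating protein (chromosome 11 from 110577042 to 110713189), had 576 and 3 reads, 213-fold lower (72.5 to 1035). Of its 28 measured relatives, 5 were lower and 10 higher by at least 1.5-fold, beside 15.0% and 15.9% of all 13318 genes tested. Chosen after the values were seen, ARHGAP32 went from 3 to 301 reads, ARHGAP44 from 12 to 154 and ARHGAP24 from 1 to 48. PHLDB2, which binds phosphoinositides and anchors microtubules near focal adhesions (chromosome 3 from 111732497 to 111976517), had 522 and 1 reads, 579-fold lower (103 to 22902). PHLDB1 had 251 and 146 reads and PHLDB3 had 105 and 147. NLRP1, an inflammasome sensor (chromosome 17 from 5499427 to 5619424), had 292 and 1 reads, 324-fold lower (57.7 to 12830.0).

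RGPD6 differs from the others in how its reads can be read. RGPD6, a RANBP2-like gene with GRIP domain (chromosome 2 from 110513812 to 110577185), had 284 reads in control and 0 in Akt1/2 DKO, as assigned 105-fold lower against the floor. RGPD5, its near-identical copy, had 3 and 435. Every 50-base word of RGPD6 occurs in transcripts of another gene, and 98.6% occur in RGPD5. The sum of the 2 genes was 287 in control and 435 in Akt1/2 DKO, 1.37-fold higher (1.18 to 1.59), so the sum was not lower in Akt1/2 DKO. The reads of RGPD6 and RGPD5 cannot be told apart where their sequences are the same. AL136295.1 (ENSG00000254692), with 71 and 0 reads, is a similar case. It carries no description in the deposited table, and 98.3% of its words occur in other genes. TM9SF1 and CHMP4A, which it overlaps on the same strand, had 790 and 892 reads and 495 and 593 reads. At the other end, 16 of the 30 genes shared no 50-base word with any other gene, and 23 shared under 5%. The estimates of 6 silenced genes were not whole numbers, beside 14.9% of all genes with at least 50 control reads.

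The 30 genes lay on 12 chromosomes, with 5 on chromosome 6, 4 on chromosome 10, 3 each on chromosomes 2, 3 and 14, and at most 2 on any other. Of all 13318 genes tested, 664 lay on chromosome 6 and 754 on chromosome 3. Numbers for the other chromosomes are not given here, so their counts stand without a background. For each gene, the nearest non-overlapping gene on either side whose reads in both libraries summed to 50 or more was examined. In 21 of the 30, both neighbours were within 3-fold of control. In 5 one neighbour was, and in 4 neither was. Of the 60 neighbour positions, 3 held a gene that itself met the read limits (AKR1C1, AKR1C2 and MEP1A) and was low by that choice. The choice of genes did not use the other 57. Of these, 47 held a gene within 3-fold, 8 were lower and 2 higher, and their median log2 fold change was -0.20. For scale, over all 13318 genes, which needed 10 reads and not 50, 4.53% were lower by at least 3-fold. The shares of all genes within 3-fold, or higher by it, are not given here, so those counts stand without a background.

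Some neighbours stood very close. CHGA lies 1.62 kb from ITPK1, which had 1147 and 1205 reads, and ABHD10, 2.49 kb beyond PHLDB2, had 744 and 598. PLTP lies between ZSWIM1 (165 and 149 reads) and PCIF1 (398 and 411). Others stood far off, for example USP6NL at 3379 kb from GATA3, and say little about the ground between. PHLDB2, AGTR1 and SI lie on chromosome 3, whose 754 tested genes were centred on a median log2 fold change of -0.54, while the medians of the other chromosomes, Y and the mitochondrial genome aside, lay between -0.20 and 0.10. Beside SI, SLITRK3 had 81 and 7 reads.

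**Figure D4:**
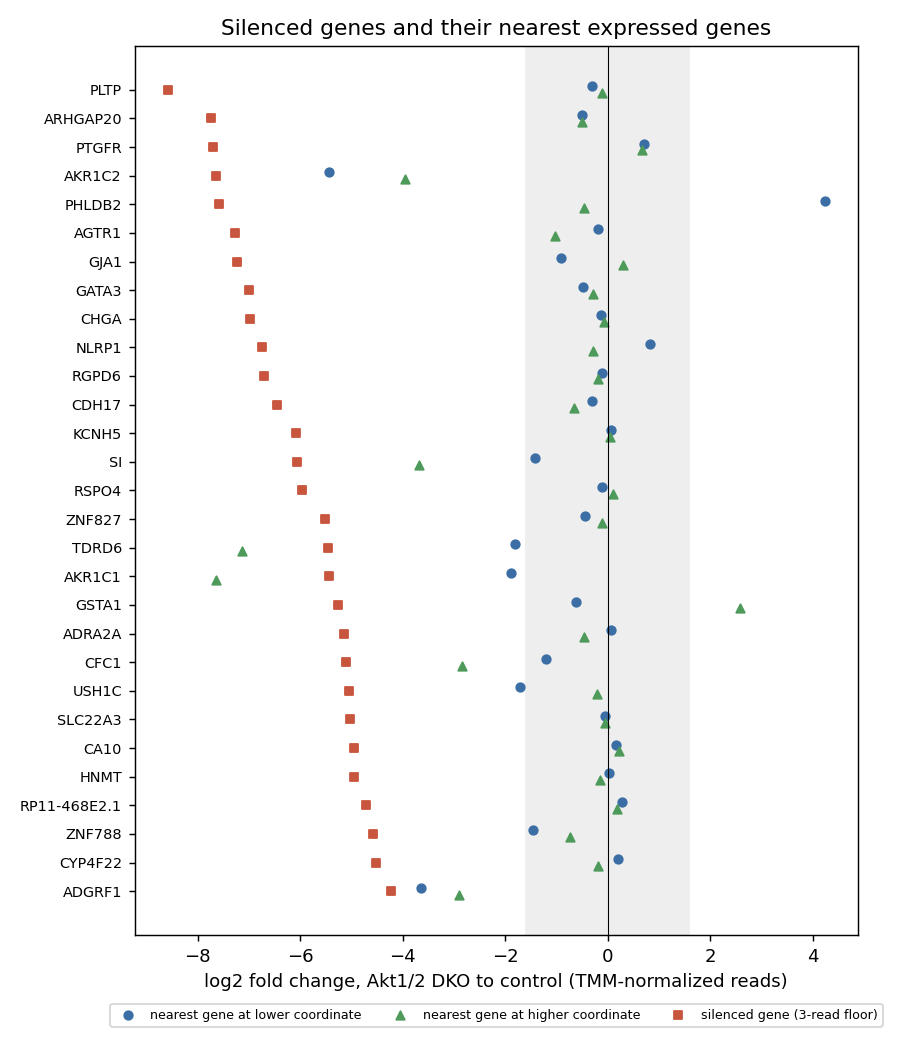
For 29 of the 30 silenced genes (square, with 3 reads as the floor) the log2 fold change of Akt1/2 DKO to control, and those of the nearest expressed genes at lower (circle) and higher (triangle) coordinates, with the shaded band marking 3-fold. For most genes both neighbours lie in the band, and the widest departures include those beside AKR1C1, AKR1C2, TDRD6, ADGRF1, SI and PHLDB2.

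The 4 genes with neither neighbour within 3-fold formed 2 places. These places were picked by the values of their neighbours, which include AKR1C3, KLF6, SLC25A27, ADGRF5 and TNFRSF21. AKR1C1 and AKR1C2 neighbour each other, with KLF6 (702 and 210 reads) 1178 kb off on the far side of AKR1C1. Within 1 Mb of AKR1C1 lay 9 other genes with at least 10 reads, AKR1C2 among them. Of these 9 genes, 3 were lower by at least 3-fold, and their median log2 fold change was -0.12. The second place was a stretch of 354 kb on chromosome 6, from the start of TDRD6 at 46687875 to the end of ADGRF1 at 47042363. It holds 6 measured genes, 5 of them with at least 10 reads. TDRD6, ADGRF1 and MEP1A met the read limits and were low by that choice. The other 2, PLA2G7 and ADGRF5, were also lower by at least 3-fold. Of these, ADGRF5 was a neighbour by which this place was picked. TDRD6 had 119 reads in control and 2 in Akt1/2 DKO. PLA2G7, a lipoprotein-bound phospholipase whose gene overlaps TDRD6 by 119 bases on the opposite strand, had 888 and 41. MEP1A, left out by name, had 379 and 0. ADGRF5 had 68 and 6, and ADGRF1 had 51 and 1. Between them ANKRD66 had 0 in both libraries.

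Lower reads were also found past this stretch on both sides. At lower coordinates, SLC25A27 had 355 and 113 reads, CYP39A1 had 80 and 25, RCAN2 had 89 and 30, and ENPP5 had 69 and 65. At higher coordinates, TNFRSF21, a death receptor, had 3078 and 455 reads, 7.50-fold lower. CD2AP had 1081 and 600. ADGRF4, in contrast, had 2 reads in control and 34 in Akt1/2 DKO, so an adhesion receptor of the same cluster was higher. Within 1 Mb of TDRD6 lay 12 other genes with at least 10 reads, of which ADGRF1 and MEP1A met the read limits. Of the remaining 10 genes, 6 were lower by at least 3-fold, and their median log2 fold change was -1.76, beside a median of 0.09 over the 664 tested genes of chromosome 6. SLC25A27, ADGRF5 and TNFRSF21 are among these 10 and were the neighbours by which this place was picked. The values of the 10 are therefore partly fixed by that choice.

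**Figure D5:**
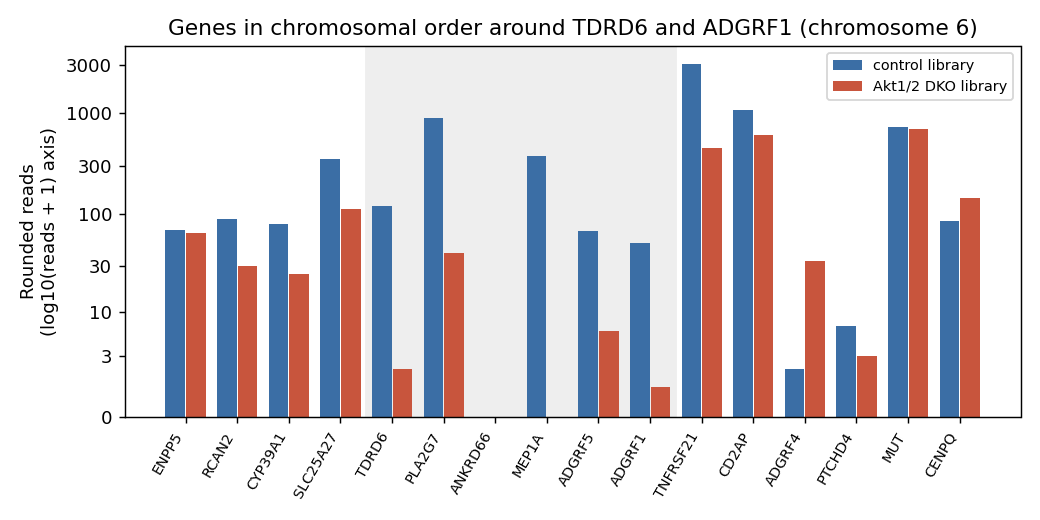
Rounded reads in the 2 libraries, on a log10(reads + 1) axis, of the genes around TDRD6 and ADGRF1 in chromosomal order, with the stretch from TDRD6 to ADGRF1 shaded. From RCAN2 to CD2AP each gene with reads is lower in Akt1/2 DKO by at least 1.5-fold, while ENPP5 (69 and 65 reads) is nearly level and ADGRF4 (2 and 34) is higher.

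The promoters of the 2 silenced genes at the ends of this stretch are shown because they are of unlike composition although both genes were at most at 2 reads in Akt1/2 DKO. Each is the 250 bases before the start that RefSeq gives, from its table (GRCh38.p14), 5′ to 3′ on the strand of the gene, and capitals mark CpG. TDRD6 is on the plus strand at chr6:46687635-46687884 and ADGRF1 on the minus strand at chr6:47042333-47042582.
TDRD6: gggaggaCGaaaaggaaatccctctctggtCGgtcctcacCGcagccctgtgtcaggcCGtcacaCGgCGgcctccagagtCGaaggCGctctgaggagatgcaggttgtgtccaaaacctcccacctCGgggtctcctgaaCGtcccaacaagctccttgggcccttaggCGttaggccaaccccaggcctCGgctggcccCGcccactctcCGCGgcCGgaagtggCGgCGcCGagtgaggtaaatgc
ADGRF1: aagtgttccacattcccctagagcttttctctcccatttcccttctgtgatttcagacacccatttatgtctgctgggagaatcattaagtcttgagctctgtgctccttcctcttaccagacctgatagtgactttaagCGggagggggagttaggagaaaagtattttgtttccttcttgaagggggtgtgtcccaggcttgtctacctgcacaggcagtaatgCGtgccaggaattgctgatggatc
TDRD6 has 19 CpG and a GC content of 65.2%, and ADGRF1 has 2 CpG and 47.6%.

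The 4 printed promoters were searched on both strands for 3 motifs, and none was found in any of them. The forkhead motif TGTTTAC is held by 2.98% of all 35116 promoters of the table. The TATA box, spelled TATAAA here, is held by 10.7%. The E-box with the letters CAGGTG is held by 17.5%. No match says only that these letters are not in these windows. The wider comparison of CpG-rich promoters over the set was void, since the table held a promoter for 21 of the 30 genes (70.0%), under the 80% set for such a check. AGTR1, ARHGAP20, CDH17, NLRP1, AL136295.1, SLC22A3, ZNF788 and ZNF827 were among those with none.

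The annotation that the authors attached to each gene gave further groupings, which in places differ from the roles above. CDH17 and NLRP1, for example, are placed in the nucleus, and PHLDB2, SI and CFC1 at the plasma membrane. Of the 14 silenced genes with a KEGG pathway, 4 were in neuroactive ligand-receptor interaction (PTGFR, AGTR1 and ADRA2A among them), and 3 in the metabolism of xenobiotics by cytochrome P450 (AKR1C2, AKR1C1 and GSTA1). Over the 3854 annotated genes with at least 50 control reads these terms held 1.22% and 0.597%. No other pathway held 3 or more. By gene ontology, 12 of 30 (40.0%) were placed at the plasma membrane, beside 21.4% of annotated genes with at least 50 control reads. In the extracellular region were 11 (36.7%, beside 21.6%), and in the nucleus 4 (13.3%, beside 50.1%). Signal transducer activity was given to 7 of 26 (26.9%, beside 5.33%), and transmembrane transporter activity to 5 (19.2%, beside 4.89%). Cell motility was given to 6 of 30, beside 6.91%, namely PLTP, PHLDB2, AGTR1, GATA3, CHGA and ADRA2A. These shares were not tested, and terms overlap in their genes.

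Lists of marker genes were read in both libraries, with the silenced genes among them. CDH17, SI, CHGA and SNAI2 met the read limits and were low by that choice, also within the counts and sums below. For scale, 15.0% of all 13318 genes tested were lower and 15.9% higher by at least 1.5-fold. Of the 10 markers of intestinal epithelium 9 were in the table, and all 4 with at least 10 reads were lower by at least 1.5-fold. These were the silenced CDH17 and SI, together with VIL1, the actin-bundling protein of microvilli (2268 and 545 reads), and LGALS4 (59 and 26). Only VIL1 and LGALS4 were not fixed by the choice of genes. The defining intestinal factors CDX2 and HNF4A, like FABP1 and APOA4, were at 0 in both libraries, and the list summed to 2745 and 574 reads. Of 10 neuroendocrine markers 7 were tested, of which CHGA was lower and ENO2 higher (1404 and 3198 reads). SYP had 752 and 998, SCG3 had 532 and 603, and the defining factor INSM1 was at 0 in both. That list summed to 3413 and 5130 reads.

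In the list for epithelial-mesenchymal transition, 3 of 9 tested genes were lower (SNAI2, VIM and CDH1) and 4 higher (EPCAM, TWIST1, SNAI1 and CDH2). Of the 15 prostate luminal markers 8 were lower and 3 higher by at least 1.5-fold, with a median log2 fold change of -1.60. Among them FOXA1 had 2511 and 3289, and HOXB13 had 2363 and 865. Of 13 tested androgen-induced genes 8 were lower and 2 higher (median -1.17), and of 14 FOXO-induced genes 3 were lower and 6 higher (median -0.06). Endothelial and leukocyte markers were low in both libraries. Control and Akt1/2 DKO sums were 15 and 27 reads for endothelium, 58 and 82 for leukocytes, and 267 and 898 for basal epithelium, in which KRT5 and TP63 were at 0. DST alone gave 149 and 803 of the basal reads, and of the 6 tested basal genes 3 were lower and 2 higher by at least 1.5-fold (median log2 fold change -0.25). Fibroblast markers summed to 1038 and 242, of which VIM gave 897 and 84, and FAP was at 0. The part of these differences in the loss of reads of the silenced genes was not tested.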

How the data were processed

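RNA from 1 control and 1 Akt1/2 DKO library was compared. Estimated counts of reads per gene, not normalized, and FPKM values were deposited by the authors in 1 table. The submitters' processing notes name fastp 0.20.0, TopHat, Cufflinks, edgeR and GRCh38.p10, without their roles, and the annotation release is not given in the sources used here. Columns with the authors' own fold changes, p-values and correlation were not used. Here the estimates were rounded, and TMM factors were taken over genes with a sum of 10 or more reads (edgeR 4.0.16, R 4.3.3). Ratios have 95% Clopper-Pearson intervals (scipy 1.17.1, Python 3.11.15) that cover counting error only. For a gene at 0 reads the fold was computed with its 0 set to a floor of 3 reads. This value is not a lower bound. It exceeds the lower limit of the exact interval, and is not comparable with the intervals of other genes. Steps were tested on simulated data.

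Each silenced gene is named except 1 that is not reported here by name, though it is counted in all sums. The 12 with most control reads are given with position and fold. Relatives share the letters of the symbol before its first digit (at least 3 letters), and other relatives named were chosen after their values were seen, as were the groups by role. The members and lists were chosen with earlier results of these data known. Positions are from GENCODE release 29 (GRCh38), which held 19571 of 19607 identifiers. Shared 50-base words were counted over its transcripts.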

Additional observations from a re-analysis of the deposited data

How the results depend on the processing

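The number of silenced genes followed its limits. It was 82 with at least 20 control reads, 71 with at most 10 reads in Akt1/2 DKO, 9 with 0 reads in Akt1/2 DKO, and 49 with at least 1 FPKM in control and at most 0.05 in Akt1/2 DKO, 19 of which were among the 30. With at least 100 control reads it was 20, without rounding 30, and, as alternatives chosen after seeing the data, 27 without genes that share at least 50% of their words and 27 without chromosome 3. Other scalings (total count, DESeq2 1.42.0 size factors, upper quartile), and read filters gave 1487 to 2136 genes lower by at least 1.5-fold and 105 to 130 lower by at least 10-fold. The median log2 fold change of the silenced genes lay between -5.74 and -5.68 under other scalings, and was -6.76 with a floor of 1 read. The scalings moved a gene by at most 0.05 on the log2 scale, so the direction of the silenced genes, fixed by the read limits, could not turn. Both neighbours were within the limit for 19 to 21 genes, also when taken from genes with more than 3 reads in Akt1/2 DKO, a choice made after seeing the data. The comparison of CpG-rich promoters and its alternative gave no value. Depth limits the folds of genes near 50 control reads most. No paired analysis was possible because each genotype has 1 library.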
